A study of Mus musculus with 11 samples.

Results

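Control replicates 2 and 3 are profiles that target Myc-tagged retinoic acid receptor alpha (RARα). A called peak alone does not show that the receptor was bound. The regions described here are stretches of the mouse genome at which control replicates 2 and 3 both had a called peak. They were chosen by taking every pair of peaks of the 2 full lists that overlapped by 1 bp or more on chromosomes 1 to 19 and X, joining each pair to its outer edges and merging joined spans that overlapped. This gave 1179 regions, from 1182 of the 11709 peaks of control replicate 2 and 1189 of the 30054 peaks of control replicate 3. The 6 Myc-tag lists together hold 1106011 peaks on these chromosomes. Because the overlap of these 2 lists chose the regions, the overlap itself and the signal of the 2 lists are given as descriptions, without a test.

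The profiles are from CUT&RUN, in which an antibody tethers a nuclease that cuts out the DNA around a bound protein. The cells were cortical progenitors at E14 that carry Prom1, found on the surface of neural stem cells, and were separated on magnetic beads, and the antibody recognised the Myc tag. The control group has 3 Myc-tag libraries and the Foxc1 mutant group has 3, both carrying the tagged receptor as far as the labels say. Libraries made with an isotype antibody (5 in all) were not analysed here, and the values therefore stand without a background level. The labels give neither the Foxc1 allele, nor how the tagged receptor was introduced, nor whether replicates came from separate embryos. Peaks do not measure expression, so the labelled cell type could not be checked with marker genes.

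RARα is a nuclear receptor that pairs with an RXR receptor on DNA, typically at repeats of a short half-site, and switches from repressing to activating nearby genes when it binds retinoic acid. In the developing brain retinoic acid comes in part from the meninges, whose formation needs the transcription factor Foxc1. The series title names neurogenesis, Notch and Sox2, and genes of these pathways were looked up beside the regions.

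The lists differed in length and height. The 4 other lists held 54091 to 513260 peaks on the same chromosomes, and control replicate 1 held 86444. Peak height is given in steps, the smallest signal unit of each library, because the authors' scaling is not stated. The median height was 2 steps in control replicates 2 and 3, 10 steps in control replicate 1 and 4 steps in each mutant library. Peaks of control replicates 2 and 3 covered 0.151% and 0.334% of the span from the first to the last peak of each chromosome, against 8.36% for control replicate 1 and 1.51%, 12.7% and 16.2% for mutant replicates 1, 2 and 3. Read numbers were not stated in the sources used, so the absence of a peak does not show that a site was unbound. The libraries also differed on the sex chromosomes. The ratio of peak density on X to that on autosomes was 0.943 in control replicate 2, 1.55 in control replicate 3, 0.327 in control replicate 1 and 0.5815, 0.5821 and 0.5865 in mutant replicates 1, 2 and 3. On Y, which the rule leaves out, control replicates 2 and 3 had 160 and 219 peaks, or 1.35% and 0.723% of their deposited lists. Control replicate 1 and mutant replicates 1, 2 and 3 had 2, 21, 109 and 30, or 0.0023%, 0.039%, 0.027% and 0.0058%. What part this plays in the overlap was not tested. Without X there were 1101 regions, and the share of control replicate 2 peaks that were shared was 10.09% with X and 10.05% without it.

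The overlap of the 2 lists was sharp in position. Of the peaks of control replicate 2, 10.1% were shared (95% Wilson interval 9.56 to 10.7%, which covers counting error only), and of the peaks of control replicate 3, 3.96% were shared (3.74 to 4.18%). The midpoint of a control replicate 2 peak lay inside a control replicate 3 peak in 6.95% of cases, 20.8 times the 0.334% of the span that these peaks cover. In the opposite direction 2.99% of midpoints were covered, 19.9 times the covered share. Within 200 bp of the midpoints of control replicate 2 there were 946 midpoints of control replicate 3, 17.3 times the 54.8 pairs that its mean density gives. Between 200 and 400 bp the ratio was 6.01, between 400 and 600 bp 1.79, between 600 bp and 1 kb 1.12 and between 1 and 2 kb 1.02, so the excess was confined to about the width of the peaks.

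No such excess was seen around either library in the lists of the other 4. Within 200 bp of control replicate 2 midpoints, peaks of control replicate 1 and of mutant replicates 1, 2 and 3 stood at 0.914, 1.02, 1.02 and 0.961 times their mean density. Around control replicate 3 the same ratios were 0.962, 0.890, 0.978 and 0.999. The coincidence of position was therefore present in 1 of the 9 pairs of lists compared in this way, the pair that defines the regions. Its cause was not tested. The sequence of the regions was not read here, so their repeats, base composition and mappability were not examined, nor whether the 2 libraries have reads in common. The assignment of reads to libraries and the identity of the samples were not checked either, so what the overlap means is not known.

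**Figure D1:**
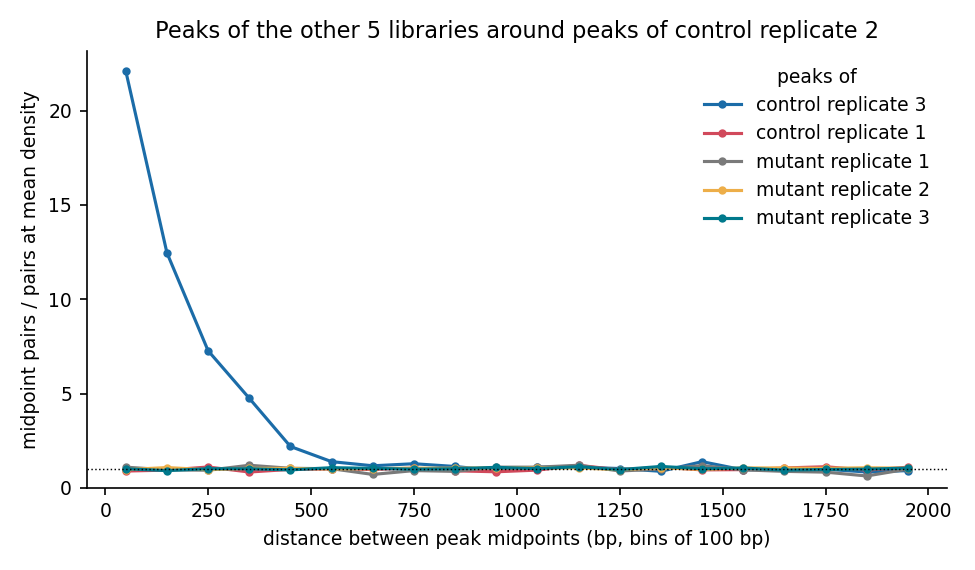
The horizontal axis is the distance between peak midpoints in bp, in bins of 100 bp, and the vertical axis is the number of midpoint pairs divided by the number at mean density, for each of the other 5 libraries around the peaks of control replicate 2. The line of control replicate 3 falls from 22.1 in the first bin to 1.39 at 500 to 600 bp, and the lines of control replicate 1 and the 3 mutant libraries lie near 1 throughout.

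Paired peaks lay on top of each other but did not share their edges. The median overlap of the 1192 pairs was 213 bp (interquartile range 145 to 298 bp), or 89.3% of the shorter peak. In 426 pairs the shorter peak lay wholly inside the other. The positions of highest signal were a median of 116 bp apart, and 529 pairs (44.4%) had them within 100 bp. Only 3 pairs had the same start, 5 the same end and 0 both, and 35 and 39 pairs had starts or ends within 5 bp. The regions were a median of 494 bp wide, from 198 to 1370 bp, and 1166 of the 1179 held 1 peak of each library. Together they cover 0.607 Mb.

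At the edge of the rule, 14 pairs overlapped by 10 bp or less and 11 further peaks of control replicate 2 lay within 10 bp of a control replicate 3 peak without overlapping it. The pairs had heights of 2 to 4 steps and the further peaks 2 or 3 steps. In all, 338 non-shared peaks of control replicate 2, or 3.21%, lay within 1 kb of a control replicate 3 peak.

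In 956 shared regions (81.1%) the strongest peak was 2 or 3 steps high in both libraries. In 519 regions (44.0%) the strongest peak was 2 steps high in each library, the lowest height in these lists, and in 15 (1.27%) both were 4 steps or higher. Shared peaks were somewhat taller and wider than non-shared ones: 10.7% against 6.36% of the peaks of control replicate 2 reached 4 steps, and 9.34% against 6.54% of those of control replicate 3. Median widths were 368 and 298 bp for shared and non-shared peaks of control replicate 2, and 313 and 257 bp in control replicate 3. A wide peak meets another peak more easily, so width is also part of what the rule selects. The total signal of a region in one library said little about the other, with a Spearman's rho of 0.09 across the 1179 regions, given as a description.

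The share of peaks that were shared rose with height in both libraries. Of the 2-step peaks of control replicate 2, 9.47% were shared (95% Wilson interval 8.86 to 10.1%), of the 3-step peaks 10.3% (9.21 to 11.6%), of the 4-step peaks 14.5% (11.97 to 17.6%) and of the peaks of 5 steps or more 20.7% (15.4 to 27.1%). In control replicate 3 the shares were 3.65% (3.41 to 3.91%), 4.47% (3.99 to 5.002%), 5.01% (4.02 to 6.21%) and 7.38% (5.33 to 10.1%). Midpoints in place of whole peaks leave the peak's own width out. By height, 6.68%, 6.56%, 10.5% and 13.0% of control replicate 2 midpoints then fell inside a control replicate 3 peak. In the opposite direction the shares were 2.75%, 3.40%, 3.90% and 5.42%. The midpoint share of control replicate 2 thus did not rise from 2 to 3 steps, the heights of most of its peaks. Even in the tallest class most peaks of each list had no partner in the other.

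**Figure D2:**
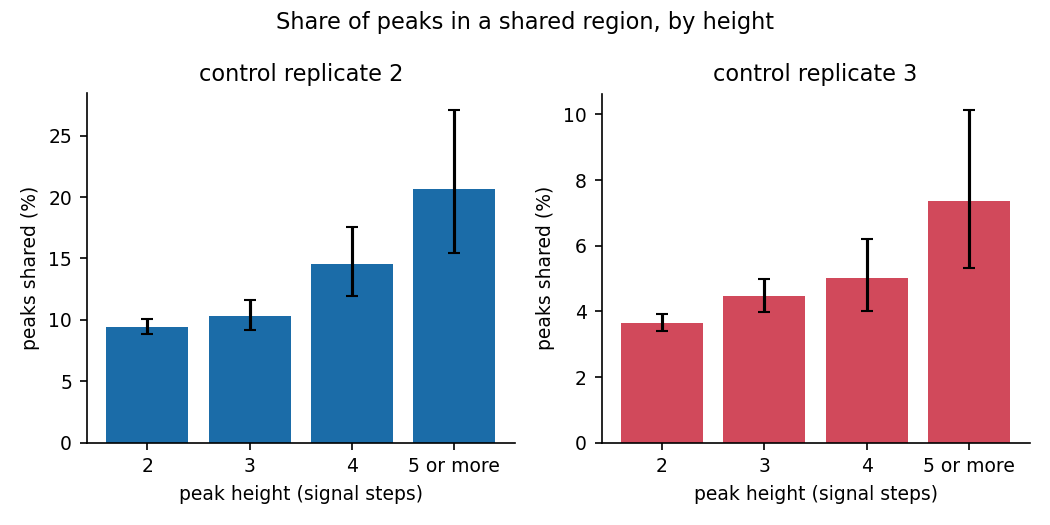
Bars give the percent of peaks of control replicate 2 (left) and control replicate 3 (right) that belong to a shared region, by peak height in signal steps, with 95% Wilson intervals. The share runs from 9.47% to 20.7% on the left and from 3.65% to 7.38% on the right, on different vertical scales.

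The position of the shared regions relative to genes was close to that of the non-shared peaks of the same libraries. The midpoint lay inside a protein-coding gene in 445 of 1179 regions (37.7%, 95% Wilson interval 35.0 to 40.6%), in 38.1% of the non-shared peaks of control replicate 2 and in 37.7% of those of control replicate 3. Positions taken every 1 kb along the same span, assembly gaps included, were inside such a gene in 40.0% of cases. Within 5 kb of a gene end were 11.0% of the regions (9.36 to 12.9%), 10.9% and 10.8% of the non-shared peaks and 12.5% of the genome positions. Listed transcription starts, the places where a receptor at promoters would sit, had 17 of 1129 regions within 1 kb, or 1.51% (0.942 to 2.40%). The shares were 1.69% and 1.51% of the non-shared peaks and 2.23% of the genome positions. No start was listed on chromosome 18, so it was left out of these shares. Control replicate 1, for comparison, had 2.93% of its peaks within 1 kb of a start and 14.7% within 5 kb of a gene end. The gene table gives gene spans and not exons, so exons and introns were not told apart.

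Many shared regions were far from any gene. The median distance from a midpoint to the nearest gene end was 57.8 kb for shared regions, 56.9 and 54.7 kb for the non-shared peaks of control replicates 2 and 3 and 49.0 kb for genome positions. More than 100 kb from any protein-coding gene were 30.4% of the regions, 30.6% and 30.1% of the non-shared peaks and 27.7% of the genome positions. More than 500 kb away were 11.1% of the regions (9.44 to 13.0%), 9.85% and 9.54% of the non-shared peaks and 8.34% of the genome positions. The shared regions thus leaned slightly away from genes, as the other peaks of these lists did. Their 95% intervals held the genome values of 40.0% inside a gene and 12.5% within 5 kb of a gene end. Beyond 100 kb the interval (27.8 to 33.1%) lay just above the genome value, and beyond 500 kb it also lay above it. The 95% intervals of shared regions and non-shared peaks overlapped in the percentages beyond 100 and 500 kb, and no interval was computed for the medians. The region farthest from a gene lay 2206 kb from Pcdh9, which encodes a protocadherin, a cell adhesion protein of neurons, at chr14:90807626-90808010, with peaks of 2 and 4 steps in control replicates 2 and 3.

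**Figure D3:**
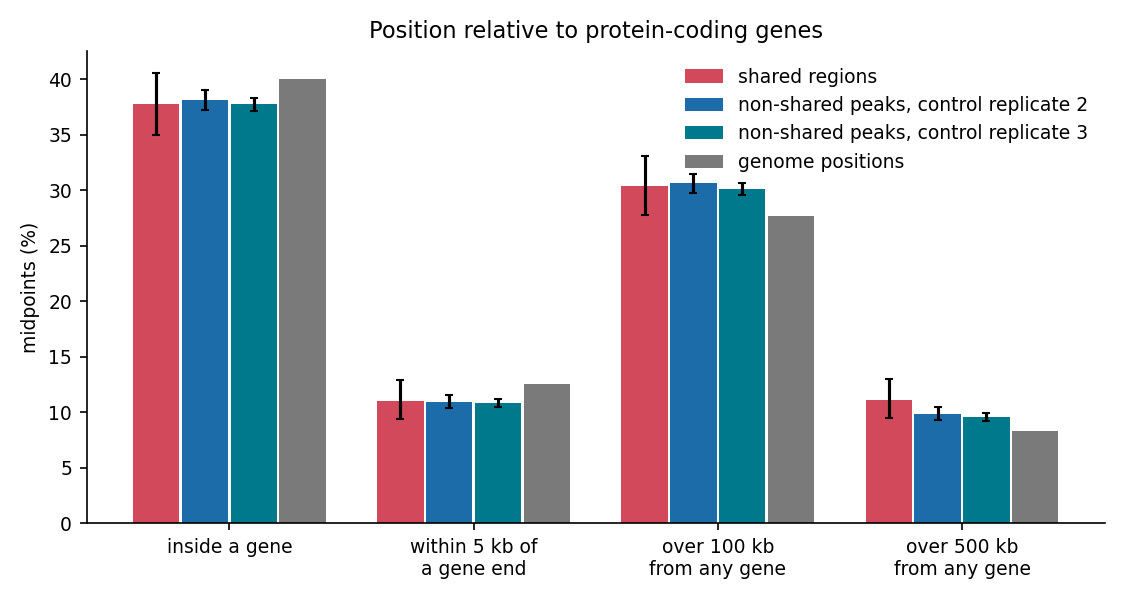
Bars give the percent of midpoints in each class of position relative to protein-coding genes, for shared regions, the non-shared peaks of each library and genome positions every 1 kb, with 95% Wilson intervals for the first 3. Shared regions and non-shared peaks have similar heights in every class, and both are lower than genome positions inside genes and higher far from genes.

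The 1179 shared regions touched 9 of the 32585 listed promoter windows (0.028%), which run from 250 bases before to 50 bases after a start. The 10527 non-shared peaks of control replicate 2 touched 66 windows (0.20%). The 28865 non-shared peaks of control replicate 3 touched 118 (0.36%). These percentages are shares of the listed windows, and a larger set can touch more of them. They therefore give no rate per region or peak and do not show that shared regions reach promoters less often. The sets differ in size and peak width, and these counts were not tested. Of the 9 windows touched by shared regions, 3 lay under the same region, and the 9 belonged to 7 genes. Of these, 2 encode proteins, Adra2b (the alpha-2B adrenergic receptor) and P2ry10b (a receptor related to the P2Y nucleotide receptors, with 3 listed starts), and 5 are long noncoding RNA genes. The part of the window that lies under the region and before the start is printed for the 2 coding genes, at the first start of P2ry10b, and for the 3 noncoding genes with at least 127 such bases, since these are the shared regions that reach a promoter (RefSeq, GRCm38.p6, strand of the gene). The retinoid receptor half-site AGGTCA and its reverse complement TGACCT were searched, and matches would be in capitals.
Adra2b, chr2:127363068-127363178, plus strand: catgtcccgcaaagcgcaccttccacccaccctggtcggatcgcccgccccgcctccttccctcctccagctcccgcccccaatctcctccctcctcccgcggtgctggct
P2ry10b, chrX:107148786-107148926, plus strand: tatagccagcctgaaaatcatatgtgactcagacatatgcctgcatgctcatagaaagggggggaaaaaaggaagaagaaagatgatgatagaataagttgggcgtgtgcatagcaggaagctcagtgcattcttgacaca
Gm38765, chr6:8806013-8806262, plus strand: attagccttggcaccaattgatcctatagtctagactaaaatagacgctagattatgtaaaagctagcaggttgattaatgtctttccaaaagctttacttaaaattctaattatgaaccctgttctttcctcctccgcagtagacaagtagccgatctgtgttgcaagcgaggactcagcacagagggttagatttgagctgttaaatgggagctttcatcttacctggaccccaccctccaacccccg
Gm34281, chr11:40567315-40567564, minus strand: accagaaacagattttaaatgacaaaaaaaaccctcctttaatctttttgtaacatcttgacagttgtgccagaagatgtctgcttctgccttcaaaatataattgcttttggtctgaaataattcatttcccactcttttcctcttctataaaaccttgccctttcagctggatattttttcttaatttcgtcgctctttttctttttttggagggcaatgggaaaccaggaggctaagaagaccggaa
Gm34179, chr17:62939537-62939663, minus strand: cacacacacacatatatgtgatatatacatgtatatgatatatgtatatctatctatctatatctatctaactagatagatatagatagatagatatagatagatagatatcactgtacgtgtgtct

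None of the 5 stretches held the half-site, which 16.2% of the 32585 listed promoter windows of 300 bases hold, and 14.1% in their 250 bases before the start. The stretches of Adra2b, P2ry10b and Gm34179 are shorter, with 111, 141 and 127 bases. With 5 stretches of these lengths, the absence of a match does not show that the half-site is rarer there. The whole window of the first P2ry10b start held a match outside the printed stretch, and the windows of the other 6 genes held none. The Adra2b stretch is rich in G and C (71.2%), while those of Gm34281 and Gm34179 have 36.4% and 26.8%, the last with short tandem repeats. The peaks over Adra2b were 2 and 3 steps high and those over P2ry10b 2 and 2 steps, and neither region had a peak in the other 4 libraries. Of the 5 printed promoters, only that of Gm38765 (3 and 2 steps) lay in a region with a peak elsewhere, of 4 steps in mutant replicate 3.

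Among all 1179 shared regions 448 overlapped a protein-coding gene, and 2 of the 10 regions of highest rank did. Rank was set by the lower of the 2 within-library percentiles of total signal. The first lay on chromosome 1 at chr1:55045961-55046860, 5.91 kb from Coq10b, which encodes a coenzyme Q binding protein, with 5 and 4 steps in control replicates 2 and 3 and 11 steps in control replicate 1. No mutant library had a peak there. The second, inside Myo5b, a myosin motor of vesicle transport, had 4 and 5 steps, and 3 steps in mutant replicate 2. Hgd, an enzyme of tyrosine breakdown, held the only other of the 10 inside a gene, with 4 and 6 steps and 3 steps in mutant replicate 2. These 3 regions were each present in 1 library beyond the pair.

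The remaining 7 lay between 0.065 and 1226 kb from the nearest gene. The region beside Efcab14, an EF-hand protein gene, at chr4:115777459-115778237, was 3 steps high in both control libraries, and mutant replicate 3 also had 3 steps there. The one nearest to Nova1, a neuronal splicing regulator, lay 1226 kb away with 4 and 3 steps, and 4 steps in mutant replicate 2. Near Prmt6, an arginine methyltransferase gene 367 kb away, control replicates 2 and 3 had 4 and 5 steps, mutant replicate 2 had 5 and mutant replicate 3 had 6. Near Tent5a, a poly(A) polymerase gene 159.9 kb away, the same 4 libraries had 4, 7, 5 and 8 steps. The region nearest to Fsip2, a sperm tail protein gene 285 kb away, had 3 and 5 steps and 5 steps in mutant replicate 3. The regions nearest to Fnd3c2 (63.4 kb, 4 and 3 steps) and Tmem182 (376 kb, 3 and 3 steps) had no peak in any other library. Of the 10, 8 had a peak in at least 1 of the other 4 libraries, against 45.4% of all shared regions. These 10 were 537 to 900 bp wide, against a median of 494 bp over all shared regions. Wider regions meet another peak more easily, and no midpoint share was computed for the 10.

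Regions that were tall in both libraries were also wider at the median, though the widest regions of all were not among them. Of the 15 regions with 4 steps or more in both, 13 had a peak in another library (86.7%, 95% Wilson interval 62.1 to 96.3%), against 50 of 111 (45.0%) where the lower height was 3 steps and 472 of 1053 (44.8%) where it was 2 steps. Among non-shared peaks of 4 steps or more the share was 46.5% in control replicate 2 and 43.7% in control replicate 3. The tall regions had a median width of 659 bp against 486 bp for the 2-step class. When the midpoint had to be covered the share was 8 of 15 (53.3%, 30.1 to 75.2%), against 32.4% at 3 steps, 31.9% at 2 steps and 33.8% and 33.6% for the tall non-shared peaks, all inside that interval. This class of 15 was singled out after its values were seen. Besides the regions named above it included 1 inside Hnrnpr, an RNA-binding protein gene (4, 4 and, in mutant replicate 3, 4 steps), and 1 inside Immp2l, a mitochondrial peptidase gene (4, 5 and, in mutant replicate 2, 5 steps). Control replicate 1 had a peak in 1 of the 15, the region beside Coq10b.

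Over all shared regions, presence in the 4 libraries that the rule did not use followed how much of the genome each covers. Control replicate 1 had a peak in 96 of the 1179 regions (8.14%, 95% Wilson interval 6.71 to 9.84%), against 8.76% of the non-shared peaks of control replicates 2 and 3. Mutant replicate 1 had one in 22 (1.87%, 1.24 to 2.81%), against 2.05%. Mutant replicate 2 had one in 231 (19.6%, 17.4 to 22.0%), against 16.9%, and mutant replicate 3 in 300 (25.4%, 23.0 to 28.0%), against 21.2%. The mean difference between shared regions and non-shared peaks was 1.52 percentage points, with the shared regions higher in 2 of 4 libraries (exact sign-flip permutation test, two-sided, p = 0.5, where 4 libraries allow no p under 1 in 8). The difference turned to −0.24 percentage points when the midpoint had to be covered, which takes away the greater width of the joined regions (exact permutation p = 0.625), and to −0.0275 when each other list was limited to its 11709 peaks of highest total signal (exact permutation p = 0.875).

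With midpoints, 6.62% of the shared regions were covered by control replicate 1, 1.10% by mutant replicate 1, 12.04% by mutant replicate 2 and 16.9% by mutant replicate 3, which is 0.792, 0.731, 0.945 and 1.04 times the share of the span that each library covers. A control library outside the pair thus held the regions no more often than its coverage gives. With 1 control and 3 mutant libraries outside the pair, no test between genotypes can be made. Peaks of the other libraries that touched a shared region were of ordinary height there, with medians of 10 steps in control replicate 1 and 4 steps in each mutant library, the same as the other peaks of those libraries.

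**Figure D4:**
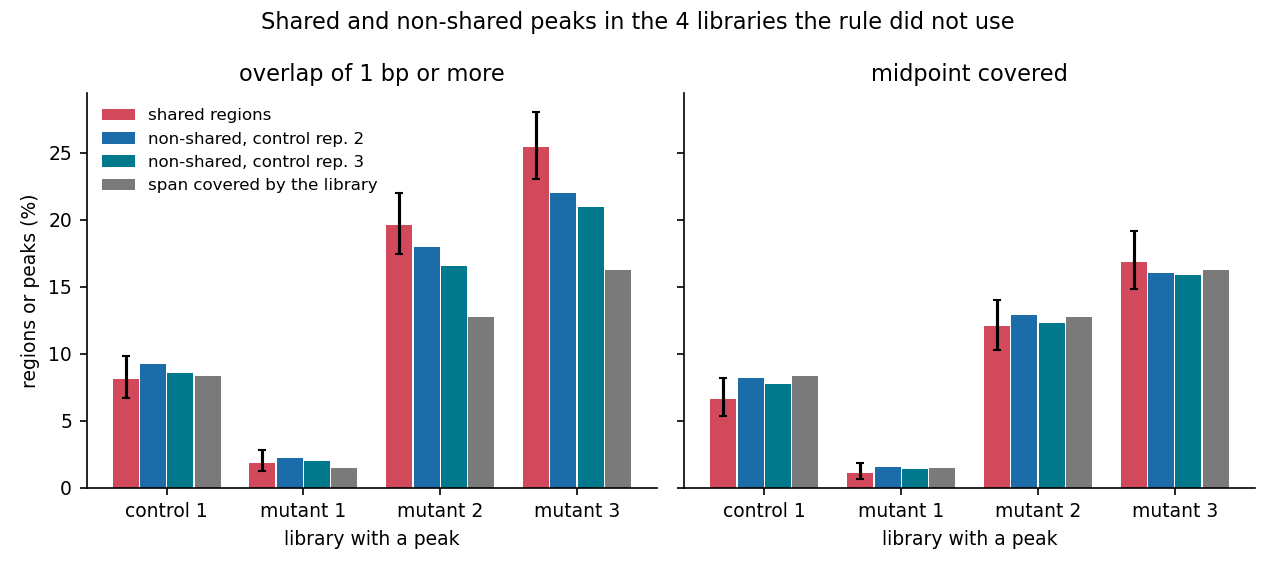
Bars give the percent of shared regions and of non-shared peaks that have a peak in each of the 4 other libraries, by an overlap of 1 bp or more (left) or with the midpoint covered (right), beside the percent of the span that the library covers. With midpoints the shared regions, with their 95% Wilson intervals, lie close to the covered share in mutant replicates 2 and 3 and lower in control replicate 1 and mutant replicate 1.

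By number of libraries, 644 of the shared regions (54.6%) had no peak in any of the 4 others, 432 had one in 1, 92 in 2, 11 in 3 and 0 in all 4. Among the non-shared peaks 59.5% had none, 32.6% had one in 1, 7.22% in 2, 0.619% in 3 and 0.010% in all 4. Of the shared regions, 36.6%, 7.80% and 0.933% had one in 1, 2 and 3. These counts use an overlap of 1 bp, and the joined regions are wider. With midpoints, the 1053 regions of lower height 2 steps had a peak elsewhere in 31.9% of cases. The 2-step non-shared peaks of control replicates 2 and 3 had one in 33.0% and 32.05%. The 15 tall regions had one in 53.3%, as given above. All 3 mutant libraries had a peak in 3 shared regions. The first lay 83.5 kb from Dchs2, a cadherin gene, and was 4 and 3 steps high in the control pair and 4, 3 and 2 steps high in the mutant libraries, in replicate order. The second lay 34.7 kb from Cxxc4, a Wnt pathway inhibitor gene, with 3 and 2 steps in the pair and 4, 6 and 4 in the mutants. The last lay 7.61 kb from Usp17le, a deubiquitinase gene, with 2 and 2 steps in the pair and 3, 4 and 4 in the mutants. Among the other 8 regions with peaks in 3 further libraries, 1 lay inside Itpr1, a calcium channel gene, with 3 and 2 steps, 8 in control replicate 1 and 5 in each of the mutant libraries 2 and 3, and 1 lay 29.3 kb from Gata2, with 2 and 2, 6, 4 and 3 steps in the same order. These genes were picked after their values were seen.

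The shared regions were spread over all 20 chromosomes. Their density was 0.459 per Mb over the whole span and ranged over the autosomes from 0.305 per Mb on chromosome 16 (29 regions) to 0.571 on chromosome 18 (50 regions), with a median of 0.463 and 0.465 on X (78 regions). The share of control replicate 2 peaks that were shared was 6.84% on chromosome 16 and 11.6% on chromosome 18, while its peak density on these chromosomes was 4.46 and 4.92 per Mb. Control replicate 3 had 17.5 peaks per Mb on X and 11.3 on autosomes, while control replicate 2 had 4.31 and 4.57. Among the shared regions the ratio of X to autosomes was 1.015, and only 2.66% of the X peaks of control replicate 3 were shared, against a median of 4.08% over its autosomes. Of the 160 peaks of control replicate 2 on Y, 7 were overlapped by control replicate 3.

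**Figure D5:**
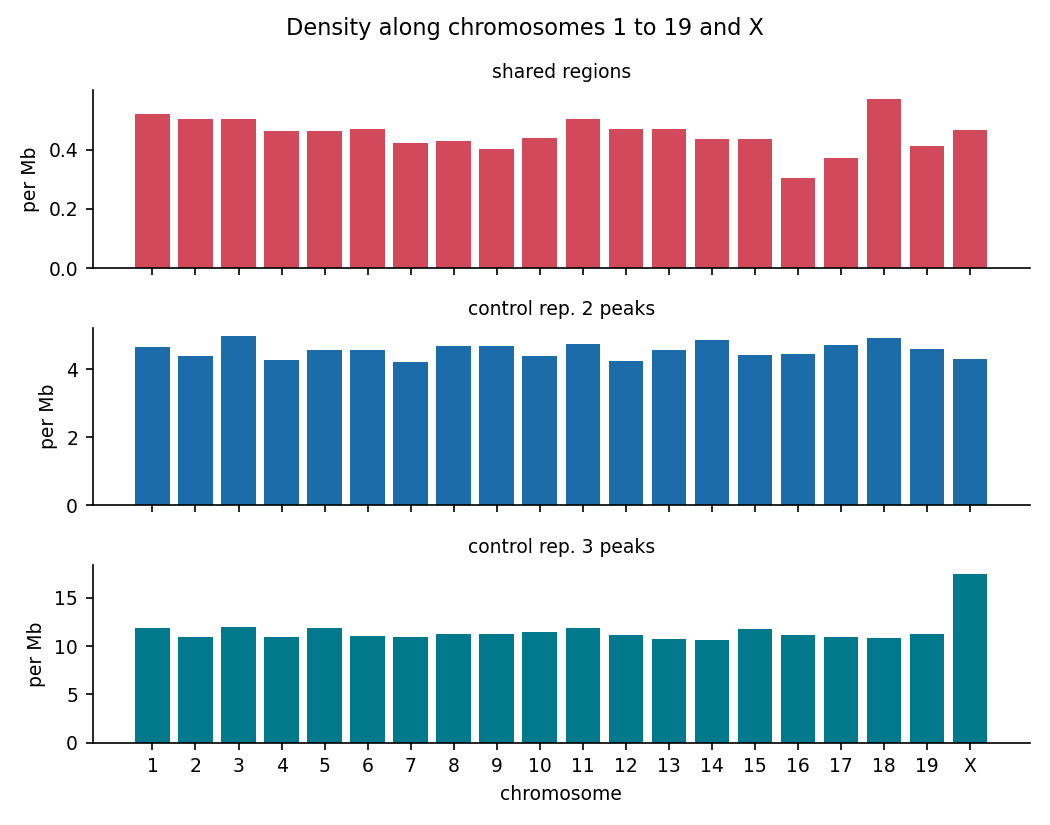
Bars give the number per Mb of shared regions (top), peaks of control replicate 2 (middle) and peaks of control replicate 3 (bottom) on chromosomes 1 to 19 and X. Shared regions and control replicate 2 have X at the level of the autosomes, while control replicate 3 has 17.5 peaks per Mb on X against 10.7 to 11.9 on each autosome.

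The regions showed little clustering. Each shared region had its nearest non-shared peak of either library at a median of 20.9 kb, and each non-shared peak had its nearest other non-shared peak at 21.4 kb. The nearest other shared region was a median of 789.6 kb away, and genome positions taken every 100 kb had their nearest shared region at 764 kb. Another shared region lay within 100 kb of 11.6% of the shared regions, while 8.66% of these genome positions and 8.996% and 8.92% of the non-shared peaks of control replicates 2 and 3 had a shared region that near. Joined at gaps under 100 kb, 1042 regions stood alone, 128 formed 64 pairs and 9 formed 3 groups of 3. Of the groups of 3, the densest spanned 34.0 kb at chr9:23977136-24011162, with its nearest gene, Npsr1, a neuropeptide receptor gene, 86.7 to 120.1 kb away and all peaks of control replicates 2 and 3 2 steps high. Another ran over 103 kb of chromosome 7 from Zfp541, a zinc finger gene, past Meis3, a homeobox gene, to Dhx34, an RNA helicase gene, with 2, 2 and 3 steps in control replicate 2 and 5, 2 and 2 in control replicate 3. The remaining group spanned 139.5 kb of chromosome 17 around Zfp97, Gm38396 and Gm6712, with heights of 2, 2 and 4 steps in control replicate 2 and 2 steps in control replicate 3. The closest pairs spanned 6.57 kb, 76.9 kb from Gria1, a glutamate receptor gene, and 6.95 kb, 218 kb from Hs3st4, a heparan sulfate sulfotransferase gene.

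Of the 21631 protein-coding genes on these chromosomes, 513 (2.37%) had a shared region inside the gene or within 5 kb of it. Any peak of control replicate 2 was found there for 16.8% of the genes and any peak of control replicate 3 for 32.6%. A shared region overlapped 422 genes (1.95%), 396 of them with 1 region, 22 with 2 and 4 with 3. Such genes were long, with a median length of 134 kb against 17.3 kb for all genes. In the tenth of genes that are longest, over 109 kb, 11.1% had a region inside, against 0.0924% of those under 1.69 kb. A long gene holds more positions, and per Mb the genes with their 5 kb flanks had 0.434 shared regions, close to the 0.459 of the whole span. For the 227 genes over 500 kb the rate was 0.524 per Mb, while non-shared peaks stood there at 4.53 and 11.3 per Mb, against 3.90 and 10.6 per Mb over all genes.

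The 4 genes with most shared regions were long ones. Ctnna2, the alpha-catenin of neurons (1098 kb), held 3 regions, of 3, 2 and 3 steps in control replicate 2 and 3, 2 and 2 steps in control replicate 3, and each of them had a peak of 3 or 4 steps in 1 mutant library. Ptprd, a receptor phosphatase of synapses (2271 kb), held 3 regions of 2 or 3 steps, 1 of which had 9 steps in control replicate 1. Erc2, a scaffold of presynaptic terminals (856 kb), held 3 regions of 2 steps in control replicate 2 and of 3, 4 and 3 steps in control replicate 3. Dnah9, a dynein of motile cilia (337 kb), held 3, 1 of them with 7 steps in control replicate 1 and 3 steps in mutant replicate 3. The non-shared peaks inside these genes numbered 4, 10, 8 and 1 for control replicate 2 and 2, 22, 12 and 4 for control replicate 3, in the same order.

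A further 22 genes held 2 regions each, and the 6 with most regions per Mb of gene are described. In Aifm1, a mitochondrial protein gene of 38.6 kb on X, both regions were 2 steps high in each library. Dnajc13, a gene of endosome traffic, had regions of 4 and 3 and of 2 and 3 steps. Pla2r1, a phospholipase receptor gene, had regions of 5 and 2 and of 2 and 2 steps with no peak in any other library. Mllt3, a gene of transcription elongation, had 1 region of 3 and 4 steps with 8 steps in control replicate 1 and 5 steps in mutant replicate 1. Hace1, a ubiquitin ligase gene, and Trappc9, a gene of vesicle traffic, were the other 2, and 1 of the 2 Trappc9 regions had 2 and 6 steps, with 8 steps in control replicate 1 and 7 in mutant replicate 3.

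The retinoic acid and Notch pathway lists had 0 and 1 genes with a shared region, near what the background gives. Of 22 retinoic acid pathway genes 0 had a shared region in or within 5 kb of the gene, against 2.37% of all protein-coding genes. These genes span 1.91 Mb with their flanks, where the density over the whole span would give 0.873 regions, so the count of 0 lies less than 1 region below it. Any peak of control replicate 2 lay at 4 of the 22 and any peak of control replicate 3 at 6. Over all protein-coding genes the shares with such peaks were 16.8% and 32.6%. Of 34 Notch pathway genes, 1 (2.94%) had a region, Maml3, a coactivator of Notch, which is 418 kb long, with 3 steps in each library and 3 steps in mutant replicate 2. The density over the whole span would give 1.03 regions in that list.

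None of the 19 Sox genes, the 21 radial glia genes or the 22 neurogenesis genes had a shared region, where the density over the whole span would give 0.855, 0.755 and 0.840. Of 22 cell cycle genes 1 did, Cdk6, a kinase of G1 phase (190 kb), with 2 steps in each library and no peak in any other. The lists of meningeal fibroblast (16 genes), vessel (14), microglia (12) and housekeeping genes (24) had 0 as well, with 0.257, 0.494, 0.197 and 0.271 regions at the density of the span. Of 24 genes of synapse and cell adhesion, 13 (54.2%) had a shared region, among them Cdh12, a cadherin with 2 regions, and Nrxn3, a neurexin with 3 and 2 steps. This list is made of very long genes, with a median of 1198 kb, and all 24 also had peaks of each library. Of the 227 protein-coding genes over 500 kb, 81 (35.7%) had a shared region. The 19 regions of the list in 33.0 Mb make 0.575 per Mb, against 0.524 for genes over 500 kb. The rate over the span was 0.459 per Mb, which would give 15.1 regions.

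The genes that the series title and the pathway point to had their nearest shared region at some distance. Rarb, a retinoic acid receptor gene and classical target, had one 27.9 kb away, of 2 and 3 steps, and Hes5, a Notch target, one 96.9 kb away, of 2 and 2 steps. For Foxc1 the distance was 148 kb, for Cyp26b1 and Cyp26a1, which break down retinoic acid, 200.3 and 247 kb, and for Hes1, another Notch target, 371 kb, where the region was 3 steps high in both libraries. Notch1, a Notch receptor gene, had its nearest region 529.5 kb away, Dhrs3, an enzyme that reduces retinaldehyde, 1528 kb, Dll1, a Notch ligand, 1785 kb and Sox2, which keeps neural progenitors in a stem state, 2751 kb. Genome positions had theirs at a median of 764 kb.

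Gene families were compared by nearest gene, without a test. Olfactory receptor genes were nearest to 1.27% of the shared regions, to 1.13% and 1.17% of the non-shared peaks of control replicates 2 and 3 and to 1.19% of genome positions every 100 kb. Zinc finger (Zfp) genes were nearest to 1.53%, 1.04%, 1.26% and 1.39% in the same order, cadherin (Cdh) genes to 1.78%, 1.29%, 1.22% and 1.13%, and protocadherin (Pcdh) genes to 1.19%, 1.08%, 1.19% and 0.953%. Vomeronasal type 1 and type 2 receptor genes, which lie in large tandem clusters, were nearest to 0 and 1 of the 1179 shared regions. Type 1 genes were nearest to 0.323% and 0.249% of the non-shared peaks of control replicates 2 and 3 and to 0.397% of genome positions, and type 2 genes to 0.313%, 0.402% and 0.529%. UDP glucuronosyltransferase genes were nearest to 2 shared regions (0.170%), with 0.0475% and 0.0554% of the non-shared peaks and 0.0467% of genome positions. None of the 1005 listed miRNA hairpins was touched by a shared region.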

How the data were processed

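Peak lists of 6 Myc-tag CUT&RUN libraries were used, with groups and replicate numbers from the titles. There was 1 list per library, called with SEACR on mm10, per the submitters' processing notes. No source used here gives the SEACR version, aligner, filters or scaling. The deposited total and max signal of each peak are the authors' values. Up to 100 steps, each max signal was a whole number of its library's smallest step, within 0.01. Peaks off chromosomes 1 to 19 and X were left out (160 and 219 in control replicates 2 and 3). Overlap counted from 1 bp, and coordinates are 1-based. Genes and promoter windows came from RefSeq tables of GRCm38.p6, the assembly behind mm10. A gene end window was 5 kb. The members and gene lists were chosen with earlier results of these data known. Named genes are those nearest to the 10 regions of highest rank, over the 5 densest clusters (ties by span, a choice made after the values were seen), the 10 with most regions, up to 4 per list and 10 fixed genes; others were picked after their values were seen. The scripts (numpy 2.4.6, pandas 2.3.3, scipy 1.17.1) were tested on simulated data. No label ties the replicates to separate embryos, and p-values cover only how these libraries vary. Alternatives tried were another overlap, list length, height, window, gene set and the leaving out of chromosome X, the tallest peaks or 1 library.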

Additional observations from a re-analysis of the deposited data

How the results depend on the processing

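Fewer regions were shared under stricter settings. With lists of equal length there were 642 regions, 5.5% and 5.49% of the peaks of control replicates 2 and 3, with 5.30% of regions within 100 kb of another and 283 genes. With peaks of 3 steps or more there were 126 regions, 3.81% and 1.49% of peaks, 0% near another region and 57 genes. With 50% of the shorter peak overlapped, 8.29% and 3.24% of peaks were shared and 9.79% of regions lay within 100 kb of another. Under every setting that changes the peaks, 36.5 to 38.2% of regions lay inside a gene, 11.0 to 11.4% near a gene end, and the median distance to an end was 56.75 to 62.4 kb. These values moved where the measure itself was redefined. Windows of 1 and 25 kb gave 2.37% and 32.9% of regions near a gene end (2.23% and 34.3% of non-shared peaks) and the wider one 823 genes, distances of 10 kb and 1 Mb gave 1.02% and 58.4% with another region, and all annotated genes gave 45.5% inside, 22.6% near an end and 18.9 kb to an end (46.0%, 22.0% and 18.5 kb for non-shared peaks). The mean difference to non-shared peaks in the other libraries turned to −0.24 with midpoints and −0.0275 with equal lengths, and without 1 of the 4 libraries it ranged from 0.622 (without mutant replicate 3) to 2.24 percentage points (without control replicate 1). With midpoints and 1 library left out, added after seeing the data, it was −0.656 to 0.086. Leaving out control replicate 2 or 3 leaves no regions. No paired analysis was possible because the regions are defined by 2 libraries of 1 group and only replicate 1 has a control and a mutant library outside that pair. Depth is unknown for each library, and most peaks of control replicates 2 and 3 are near the lowest height of their list.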
